A study of Nannospalax ehrenbergi and Mus musculus with 25 samples.

Results

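The genes described here are the aryl hydrocarbon receptor gene Ahr, its partner Arnt, its repressor Ahrr, and the xenobiotic response genes Cyp1a1, Cyp1b1, Tiparp, Nqo1, Ephx1 and Por. They were chosen by name because 3-methylcholanthrene (3MCA), the carcinogen injected in this study, is a ligand of Ahr. Of these 9 genes, 9 had a row among the 47593 genes of the mouse table and 6 had a row among the 27988 genes of the Spalax table. Cyp1a1, Cyp1b1 and Ephx1 were not analysed here in Spalax. Ahr is a transcription factor held in the cytoplasm with Hsp90 and Src. Once a ligand such as a polycyclic aromatic hydrocarbon binds, Ahr enters the nucleus, pairs with Arnt and raises the transcription of genes for drug-metabolizing enzymes, of which Cyp1a1 is the classical readout. The same enzymes convert 3MCA into metabolites that bind DNA, and Ahrr and Tiparp act as feedback inhibitors of the receptor.

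RNA-seq was performed on 25 libraries, 16 of the subterranean blind mole rat Spalax and 9 of C57BL/6 mice. The groups were 4 untreated Spalax (Spalax control), 4 Spalax that received 3MCA and remained without a tumor (Spalax tolerant, injected side), 2 Spalax with a granuloma, 2 Spalax with a fibrosarcoma, 3 untreated mice and 3 mice with a fibrosarcoma. From each tumor-bearing animal 1 library came from the injected side (IS), which held the growth, and 1 from the opposite flank of the neck, which had not been injected (UIS). A single subcutaneous dose of 1 mg (Spalax) or 200 µg (mouse) of 3MCA had been given in the left flank of the neck. Tissue was taken 18 months (2251 and 2261) or 30 months (2218 and 2375) after injection in the tolerant animals, after 14 and 16 months in the granuloma animals 600 and 976, after 18 and 30 months in the Spalax fibrosarcoma animals 2240 and 2230, and after 14, 12 and 11 weeks in mice 1019, 1023 and 512. Spalax were caught in the field, with an age estimated only as 2 to over 10 years, and mice were 3 to 4 months old.

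Each library came from 1 animal and 1 side, so the spread within a group is that between animals. Control and tolerant libraries carried dual indexes and all libraries of tumor-bearing animals single indexes, so that index type and group cannot be told apart where controls are compared with UIS. Spalax controls were 4 females, tolerant animals 3 males and 1 female, granuloma animals females, fibrosarcoma animals 1 of each sex and mice males. Control tissue was a neck muscle biopsy of an uninjected animal, tolerant tissue a biopsy of the injected side and tumor tissue the proximal part of the growth, so that side cannot be told apart from treatment between Spalax control and tolerant animals. Sex differed in part between these groups, and its part was not tested. Every animal with a growth had received 3MCA and no control had. Growth and carcinogen therefore cannot be told apart between control and UIS in either species. The granuloma UIS library of animal 976 carries another animal number in its run name, and the granuloma differences are also given without it. Libraries held 17025447 to 23386729 reads in Spalax and 22143060 to 31179183 reads in mouse. The summed level of skeletal muscle markers (6 listed, 5 with a row in Spalax) lay between 710202 and 2633230 normalised counts in the 12 Spalax libraries labelled control, tolerant or UIS, and between 360 and 5741 in the 4 IS libraries. In mouse these sums were 879295 to 3765770 in control and UIS libraries and 148 to 50193 in IS libraries, although the labels name muscle as the tissue of both sides. In the fibrosarcoma UIS library of 2230, 4 brown fat markers summed to 18398 normalised counts, against 273 in that of 2240. The part of this in the Spalax fibrosarcoma differences was not tested. Fewer cells of a type and less RNA per cell cannot be told apart in such bulk samples.

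In the mouse genome (GRCm38, GENCODE vM21) Ahr lies on chromosome 12 from 35497974 to 35535038, Arnt on chromosome 3 from 95434388 to 95497240 and Ahrr on chromosome 13 from 74211118 to 74292331. Cyp1a1 lies on chromosome 9 from 57687928 to 57703824, Cyp1b1 on chromosome 17 from 79701537 to 79715061 and Tiparp on chromosome 3 from 65528410 to 65555518. Nqo1 lies on chromosome 8 from 107388225 to 107403206, Ephx1 on chromosome 1 from 180976210 to 181020904 and Por on chromosome 5 from 135670033 to 135735326. Arnt, Cyp1a1, Tiparp and Por are on the plus strand and the other 5 on the minus strand, and all 9 are protein-coding. Exons of other annotated genes cover 2.06% of the exon bases of Ahr and 5.12% of those of Tiparp on the other strand and 3.69% of those of Ephx1 on the same strand, and 0% for the remaining 6.

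To order the genes by level in mouse, normalised counts were divided by the exon length in kilobases. In untreated muscle Ephx1, the microsomal epoxide hydrolase, stood highest at 674 ± 95.4 (SD, n = 3) normalised counts per kilobase, followed by Por, the reductase that passes electrons to cytochromes P450, at 546 ± 136. The quinone reductase Nqo1 had 290 ± 87.4, Arnt 203 ± 13.1, Tiparp 192 ± 31.96, Ahr 55.4 ± 13.7, Cyp1b1 35.4 ± 19.5, Cyp1a1 33.9 ± 36.6 and Ahrr 0.544 ± 0.345. Neighbours in this order overlapped in range except Por and Nqo1, Tiparp and Ahr, and Cyp1a1 and Ahrr. On the UIS of mice with a fibrosarcoma Cyp1a1 headed the same order at 1745 ± 923 per kilobase (n = 3), and its lowest library, at 778, lay below only the highest of Nqo1, at 793. On the IS, Tiparp was highest at 382 ± 109, and Nqo1, Ahr, Cyp1a1 and Ephx1 lay together between 38.6 and 52.5 per kilobase on average.

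**Figure D1:**
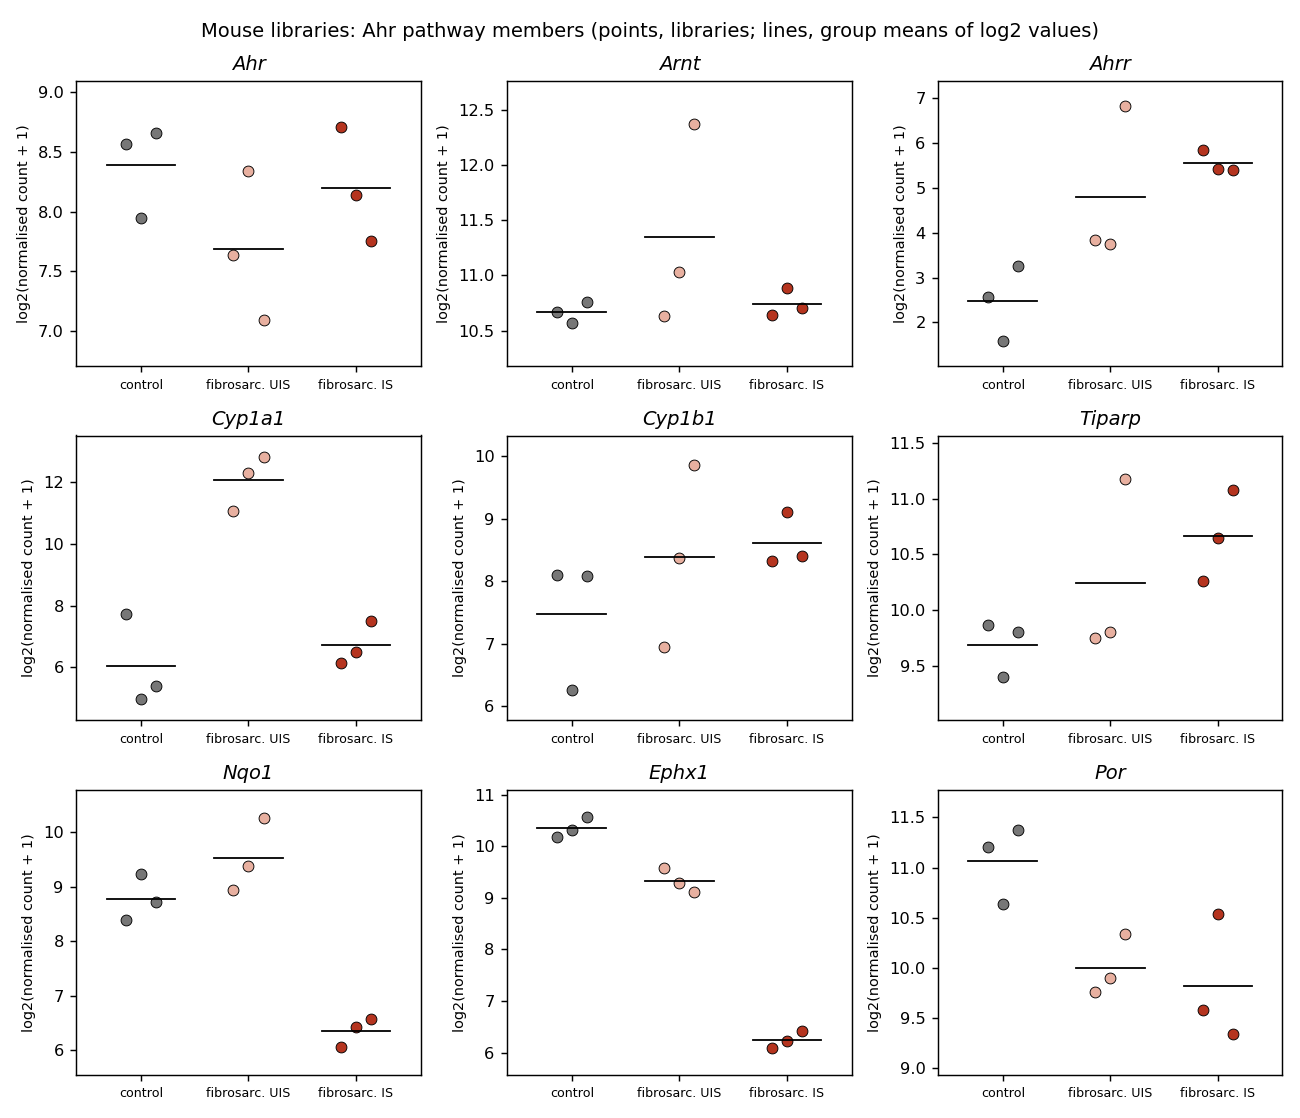
Level of each gene as log2(normalised count + 1) in the 9 mouse libraries, by group; points are libraries and lines the group means of the log2 values. The 3 UIS libraries lie above all others for Cyp1a1 (2169 to 7296 normalised counts), and the 3 IS libraries lie below all others for Nqo1 (65.6 to 93.7) and Ephx1 (67.2 to 84.2).

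The mouse UIS was set against untreated muscle to ask whether muscle away from the injection differed in 3MCA-treated animals that bore a tumor. No control mouse had received 3MCA, so tumor and carcinogen cannot be told apart in this comparison. Cyp1a1, which oxidises polycyclic aromatic hydrocarbons, had 212, 30.1 and 41.1 normalised counts in control animals 1, 2 and 5, and 2169, 5126 and 7296 on the UIS of animals 1019, 1023 and 512. The groups did not overlap, and the mean on the UIS was 51.5-fold that in control (n = 3 and 3). Among the 14792 genes tested with limma, Cyp1a1 ranked 1 by the size of the rise and 1 by p (log2 difference 6.05, SE 0.77, unadjusted p = 7.58e-05 in limma), but its adjusted p was 0.293 and limma called no gene in this comparison (0% of genes; 1621 genes, or 11%, had an unadjusted p under 0.05). edgeR also called none, with an adjusted p of 0.307 for Cyp1a1, and DESeq2 called 342 genes, 2.31%, among them Cyp1a1 at an adjusted p of 3.15e-10. Without any 1 of the 6 libraries the log2 difference of Cyp1a1 ranged from 5.51 to 6.90 and the adjusted p in limma from 0.0959 to 0.855.

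The other genes differed less between mouse control and UIS. Ephx1 had 1152, 1272 and 1517 normalised counts in control and 767, 624 and 551 on the UIS of animals 1019, 1023 and 512, a 2.03-fold lower mean without overlap (log2 difference -1.02, SE 0.24, adjusted p = 0.343 in limma and 0.0313 in DESeq2). Por had 2357, 1587 and 2647 in control and 865, 954 and 1293 on the UIS, again lower without overlap (log2 difference -1.07, SE 0.29, adjusted p = 0.381 in limma). Ahrr was low in both groups, at 6, 2 and 12 reads (4.89, 2.01 and 8.51 normalised counts) in control and 11, 12 and 78 reads (13.3, 12.4 and 112) on the UIS, with no overlap of the normalised values. Ahrr reached the filter of 10 normalised counts only on the UIS, so its direction and lack of overlap were set by the filter. Thus limma called 0 of the 9 genes, edgeR 0 and DESeq2 2 (Cyp1a1 and Ephx1), 4 had an unadjusted p under 0.05 in limma, and 2 were higher and 2 lower without overlap, beside 9.53% and 11.7% of all genes. The log2 differences of Ahr (-0.70, SE 0.39), Arnt (0.68, SE 0.44), Cyp1b1 (0.91, SE 0.80), Tiparp (0.55, SE 0.41) and Nqo1 (0.76, SE 0.40) had adjusted p of 0.487 to 0.639 in limma, and their libraries overlapped.

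Other markers moved with these groups. The summed level of 4 brown fat markers was 35380 to 60105 normalised counts in the 3 control mice and 30.2 to 20786 on the UIS, and that of 5 adipocyte markers was 86433 to 144707 and 9484 to 82327. None of these markers was at 0 in all libraries of a group. Their part in the differences of Cyp1a1, Ephx1 and Por was not tested. The UIS library of animal 512 also stood apart for Arnt (5296 normalised counts against 1587 and 2095), Ahrr, Cyp1b1 (926 against 122 and 332) and Tiparp (2312 against 860 and 894), and it held the highest muscle sum (3765770) and the lowest fibroblast sum (4063) of the 9 mouse libraries. In the UIS library of 1019, 2 proliferation markers summed to 901, against 63.9 and 15.8 in 1023 and 512 and 25.1 to 78.7 in control. There 4 T cell markers summed to 148, against 38.2 and 4.32, and 7.33 to 48.9 in control. The part of these in the differences was not tested.

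Between the mouse fibrosarcoma and the UIS of the same animals, 3 of the 9 genes fell and none rose, beside 45.1% of the 15220 genes tested that limma called (22.3% lower, 22.8% higher; 31.1% of genes were higher and 29.2% lower without overlap). Cyp1a1 had 68.7, 89.0 and 182 normalised counts on the IS of animals 1019, 1023 and 512, against the 2169, 5126 and 7296 of the UIS. Its level was lower on the IS in 3 of 3 animals, by 31.6-, 57.6- and 40.2-fold (log2 difference -5.37, SE 0.55, adjusted p = 0.00175 in limma), and the range on the IS lay within that of the control mice. Nqo1 had 65.6, 85.4 and 93.7 on the IS and 492, 666 and 1231 on the UIS (log2 difference -3.18, SE 0.41, adjusted p = 0.00284). Ephx1 had 67.2, 74.1 and 84.2 on the IS and 767, 624 and 551 on the UIS (log2 difference -3.08, SE 0.29, adjusted p = 0.00142). The IS libraries of these 3 genes lay below every UIS library, and the calls held with edgeR (43.2% of all genes called), DESeq2 (53.7%), the animal as a block (44.1%) and without any 1 of the 6 libraries.

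The 5 adipocyte markers summed to 9484 to 82327 normalised counts on the UIS and 253 to 829 on the IS, and the muscle sums given above were also lower on the IS. Their part in these falls was not tested.

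Of the other 6 genes in mouse, none was called between IS and UIS. Ahr had 418, 281 and 215 normalised counts on the IS and 198, 324 and 135 on the UIS of animals 1019, 1023 and 512, higher on the IS in 2 of 3 animals (log2 difference 0.51, SE 0.44, adjusted p = 0.372 in limma). Tiparp had 1225, 1607 and 2165 on the IS and 860, 894 and 2312 on the UIS (0.42, SE 0.45, adjusted p = 0.472), and Ahrr 56.9, 42.1 and 41.1 against 13.3, 12.4 and 112 (0.76, SE 0.88, adjusted p = 0.511). For both feedback inhibitors the UIS of animal 512 was the exception, and without it limma called Tiparp (log2 difference 0.89, adjusted p = 0.0490) and Ahrr (1.77, adjusted p = 0.0227), along with 7289 of 15944 genes in all. Arnt (-0.61, SE 0.45), Cyp1b1 (0.22, SE 0.72), the extrahepatic relative of Cyp1a1, and Por (-0.18, SE 0.37) had adjusted p of 0.308 to 0.821.

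**Figure D2:**
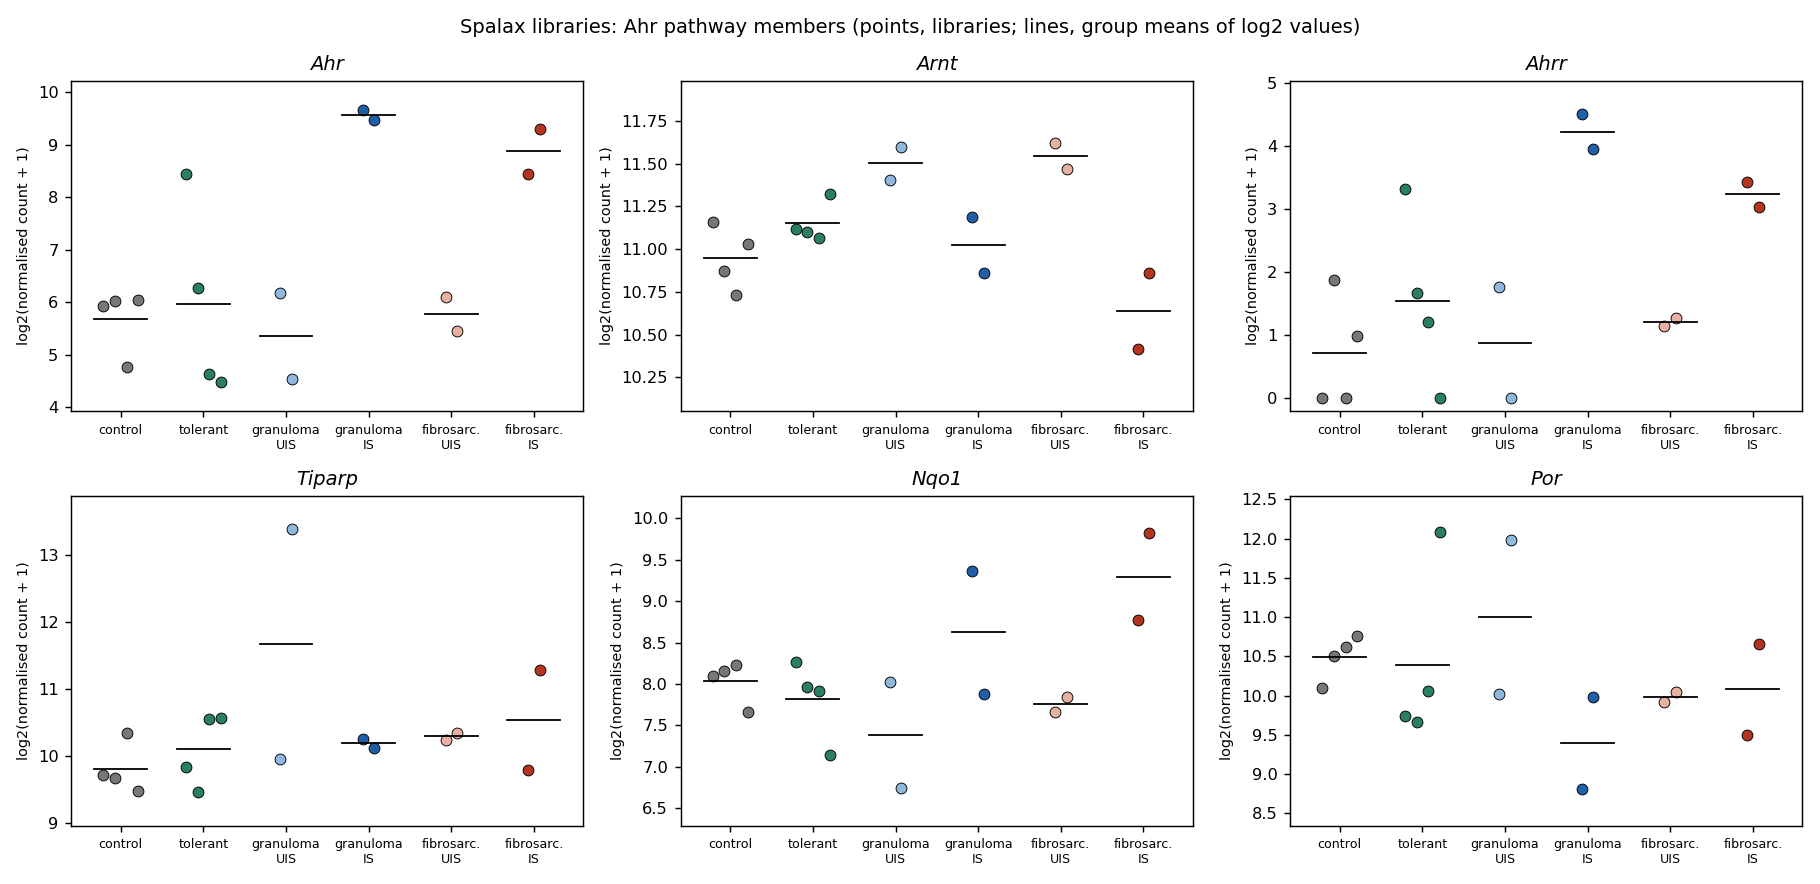
Level of each gene as log2(normalised count + 1) in the 16 Spalax libraries, by group; points are libraries and lines the group means of the log2 values. The 4 IS libraries of granuloma and fibrosarcoma have 345 to 802 normalised counts of Ahr, and 11 of the 12 muscle libraries 21.4 to 76.6; Tiparp of 1 granuloma UIS library (10681) and Por of that library (4041) and of 1 tolerant library (4340) stand apart.

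In Spalax, limma called only Ahr of these genes between the sides. By size of rise Ahr ranked 540 of 14735 genes tested in granuloma and 1004 of 14696 in fibrosarcoma. By p in limma it ranked 1190 and 2312. Ahr had 802 and 706 normalised counts in the granulomas of animals 600 and 976 and 71.2 and 22.4 on their UIS, 11.3- and 31.6-fold higher on the IS. The log2 difference was 4.20 (SE 0.68, adjusted p = 0.0159 in limma), and the 2 groups did not overlap, as for 35% of all genes that were higher and 34.8% that were lower. In the fibrosarcomas of animals 2240 and 2230 Ahr had 345 and 630, against 67.9 and 42.6 on the UIS, 5.09- and 14.8-fold higher (log2 difference 3.09, SE 0.49, adjusted p = 0.0140). Here 37.9% of all genes were higher and 36.4% lower without overlap. Ahr was 1 of 6 genes tested that limma called in granuloma and 1 of 5 in fibrosarcoma, beside 24.3% of 14735 genes (11.7% higher, 12.6% lower) and 36.3% of 14696 genes (17.4% higher, 19% lower). These calls held with edgeR, which called 20.2% and 34.7% of all genes, DESeq2, with 36.5% and 43.3%, and the animal as a block, with 21.1% and 33.2%. With 1 of the 4 libraries left out, limma called no gene at all in granuloma, whichever library it was (Ahr: log2 difference 3.38 to 5.01, adjusted p 0.0596 to 0.198; 3.38 and 0.0653 without the UIS of 976), and none in fibrosarcoma without the UIS library of 2240 (Ahr: 3.42, adjusted p = 0.161) or of 2230 (2.76, adjusted p = 0.198).

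Ahr was low in 11 of the 12 Spalax muscle libraries. The 4 control libraries had 59.6, 63.8, 26.2 and 64.7 normalised counts, and the 4 UIS libraries of tumor-bearing animals 22.4 to 71.2, which overlapped (log2 difference -0.12, SE 0.46, adjusted p = 0.915; 0.22 without the UIS of 976). The tolerant animals 2251, 2261, 2218 and 2375 had 348, 76.6, 23.8 and 21.4, also overlapping the control (log2 difference 0.28, SE 0.80, adjusted p = 0.978). Ordered by mean, Ahr was highest in granuloma IS (754 ± 67.7, SD, n = 2), then fibrosarcoma IS (488 ± 201, n = 2), tolerant (117 ± 156, n = 4), fibrosarcoma UIS (55.3 ± 17.8, n = 2), control (53.6 ± 18.4, n = 4) and granuloma UIS (46.8 ± 34.5, n = 2), and every pair of neighbours but the first overlapped. The tolerant library of 2251, whose Ahr of 348 was close to the 345 of the lower fibrosarcoma IS library, also held the lowest muscle sum (718031) and the highest sums of 6 fibroblast (186754) and 4 macrophage markers (11541) of the 4 tolerant libraries. The part of these cells in the Ahr level was not tested.

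The same lists moved with Ahr between the sides in Spalax. The 6 fibroblast markers summed to 114152 to 1889380 normalised counts in the 4 IS libraries and 13293 to 43160 in the 4 UIS libraries. The macrophage markers (6 listed, 4 with a row in Spalax) summed to 7827 to 32013 on the IS and 999 to 2523 on the UIS, and none of either list was at 0 in all libraries of a group. In mouse, where Ahr was not called, these sums were 139354 to 173019 and 4306 to 37632 on the IS, and 4063 to 29282 and 731 to 5945 on the UIS. Their part in the Ahr difference was not tested.

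Arnt, the common partner of Ahr and of the hypoxia-inducible factors, varied least of the genes in Spalax, with a coefficient of variation of 22.2% over 16 libraries. It had 2331 and 1858 normalised counts in the granulomas and 2716 and 3101 on the UIS of 600 and 976 (log2 difference -0.48, SE 0.33, adjusted p = 0.319; -0.38 without the UIS of 976). In the fibrosarcomas of 2240 and 2230 it had 1362 and 1861, below the 3154 and 2833 of the UIS (log2 difference -0.91, SE 0.26, adjusted p = 0.0541 in limma and 0.0410 in DESeq2). The 4 UIS libraries (2716 to 3154) all lay above the 4 controls (2282, 1872, 1696 and 2086), a 1.49-fold higher mean, as was the case for 6.55% of all genes (6.2% lower). limma did not call it (log2 difference 0.58, SE 0.16, unadjusted p = 0.00515, adjusted p = 0.198; 0.55 and 0.158 without the UIS of 976) and DESeq2 did (adjusted p = 0.0303). The tolerant libraries, at 2141 to 2561, overlapped the control.

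Ahrr was close to the limit of detection in Spalax muscle. It had 0, 3, 0 and 1 reads in the controls 1042, 1075, 2095 and 6038, and 12, 2, 1 and 0 in the tolerant animals 2251, 2261, 2218 and 2375. A count of 0 allows up to 3 reads, or 3.31 to 4.02 normalised counts in these libraries. On the IS there were 30 and 24 reads (21.8 and 14.5 normalised counts) in granuloma and 16 and 12 reads (9.84 and 7.20) in fibrosarcoma, against 2, 0, 1 and 1 reads on the UIS of 600, 976, 2240 and 2230. Each of the 4 animals had more on the IS. Of the Spalax comparisons between sides limma tested Ahrr in granuloma (log2 difference 3.35, SE 0.99, adjusted p = 0.0628; 2.46 without the UIS of 976), and not in fibrosarcoma, where no library reached the filter of 10 normalised counts. In granuloma Ahrr reached that filter only on the IS, so its direction in the test was set by the filter.

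Nqo1, a quinone reductase under the control of both Ahr and Nrf2, had opposite signs in the fibrosarcomas of the 2 species. In Spalax it had 436 and 902 normalised counts on the IS of 2240 and 2230 and 201 and 229 on the UIS, 2.17- and 3.94-fold higher (log2 difference 1.54, SE 0.44, adjusted p = 0.0540 in limma, 0.0507 in edgeR, 0.0115 in DESeq2 and 0.0440 with the animal as a block). In mouse it was 7.50-, 7.80- and 13.1-fold lower on the IS. The difference between these differences was 4.72 on the log2 scale (SE 0.65, adjusted p = 0.0105 in limma, 0.0163 in edgeR, 7.62e-10 in DESeq2 and 0.0439 with the block), and limma called 4.55% of 12816 genes shared by symbol, edgeR 3.05% and DESeq2 14.8%. Nqo1 was 1 of the 6 genes called, and 2 had an unadjusted p under 0.05, beside 22.7% of all genes. With the block 97 genes rather than 583 were called, or 0.757%. Each IS minus UIS difference was taken within the table of its species, because the tables were normalized separately. Dose and time after injection also differed between the species, so they cannot be told apart from species in any such contrast. Sex differed in part. Its part, and that of the brown fat markers in the UIS of 2230, was not tested. Without the UIS library of 2240 or 2230 the interaction of Nqo1 was 4.63 or 4.81 with an adjusted p of 0.0719 or 0.0687, and 17 or 10 genes were called.

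Ahr showed the other large contrast between species, with a difference of differences of 2.58 (SE 0.71), which was past the threshold in DESeq2 (adjusted p = 0.00780) but not in limma (0.0755), edgeR (0.0888) or with the block (0.126). Without the mouse UIS of 512 it was 2.88, and limma called it (adjusted p = 0.0438). On a common CPM scale (reads per library scaled to one total by TMM over the shared genes), given as a description since transcripts of the 2 species may be counted with different efficiency, control muscle had 18.7 ± 4.55 of Ahr in mouse (n = 3) and 3.08 ± 1.11 in Spalax (n = 4). The Spalax IS libraries had 20.6 to 48.9 and the mouse IS libraries 11.9 to 22.9. Nqo1 had 24.7 ± 7.57 CPM in mouse control and 15.1 ± 2.39 in Spalax control, and Ahrr 0.281 ± 0.177 and 0.0538 ± 0.0745. In the separately normalized tables, 4 brown fat markers summed to 35380 to 60105 in mouse control and 135 to 259 in Spalax control. Sums of 5 adipocyte markers were 86433 to 144707 and 8075 to 24135. Mouse controls were males and Spalax controls females. The part of tissue and sex in these levels was not tested.

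In granuloma Nqo1 had 660 and 235 normalised counts on the IS and 258 and 106 on the UIS of 600 and 976, higher in each animal by 2.56- and 2.22-fold, but the groups overlapped (log2 difference 1.25, SE 0.73, adjusted p = 0.253; 0.61 without the UIS of 976). The controls (273, 285, 299 and 201) overlapped both the tolerant (306, 247, 241 and 141) and the UIS libraries. Between the fibrosarcoma and granuloma responses none of the 6 genes was called. limma called 0 of 15584 genes (0%; 4.92% had an unadjusted p under 0.05, and 0 of the 6), edgeR called 0 of the 6 and DESeq2, which called 0.565% of all genes, 0 of the 5 it gave an adjusted p for. Ahr had a difference of differences of -1.11 (SE 0.89), Ahrr of -1.32 (SE 1.24) and Nqo1 of 0.30 (SE 0.93), and without the UIS of 976 these were -0.29, -0.44 and 0.93.

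Single Spalax libraries stood apart for Tiparp, which ADP-ribosylates Ahr, and for Por. Tiparp had 1222 and 1119 normalised counts in the granulomas, and 995 and 10681 on the UIS of 600 and 976. The next highest of the 16 libraries was the fibrosarcoma of 2230 at 2490. The log2 difference was -1.48 (SE 1.09, adjusted p = 0.354), and 0.23 without the UIS of 976. Por had 446 and 1008 on the IS and 1041 and 4041 on the UIS (log2 difference -1.61, SE 0.76, adjusted p = 0.173 in limma; -0.63 without the UIS of 976). Its level was lower on the IS in each animal, by 2.34- and 4.01-fold. The groups did not overlap, as for 34.8% of all genes that were lower.

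Por of tolerant animal 2375 was 4340, against 854, 812 and 1062 in the other tolerant animals and 1092, 1453, 1568 and 1725 in control (log2 difference -0.11, SE 0.48, adjusted p = 0.986). In fibrosarcoma Por had 723 and 1614 on the IS and 965 and 1059 on the UIS, and Tiparp 887 and 2490 against 1214 and 1304, so both were lower on the IS of 2240 and higher on that of 2230. Their log2 differences were 0.10 (SE 0.44) and 0.24 (SE 0.54). Without the IS library of 2240 limma called Por (0.67, adjusted p = 0.0424) and Tiparp (0.98, adjusted p = 0.0192), and also Arnt (-0.68, adjusted p = 0.0457) and Nqo1 (2.07, adjusted p = 0.0109). Without that of 2230 it called Arnt (-1.13, adjusted p = 0.0237) and Nqo1 (1.02, adjusted p = 0.0489) as well. In these fits limma called 7900 of 15377 and 7255 of 15444 genes in all, against 5339 of 14696 with every library. Between control and tolerant limma called 0 of the 5 genes tested (0% of 14020 genes), with 0 (5.23% of all genes) at an unadjusted p under 0.05, 0 in edgeR and 0 in DESeq2. Between control and the UIS limma called 0 of 5 (0% of 13909 genes), with 1, Arnt (16.6% of all genes), at an unadjusted p under 0.05, 0 in edgeR and 1, Arnt, in DESeq2. DESeq2 called 60 genes (0.428%) and 516 genes (3.71%) in these comparisons.

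**Figure D3:**
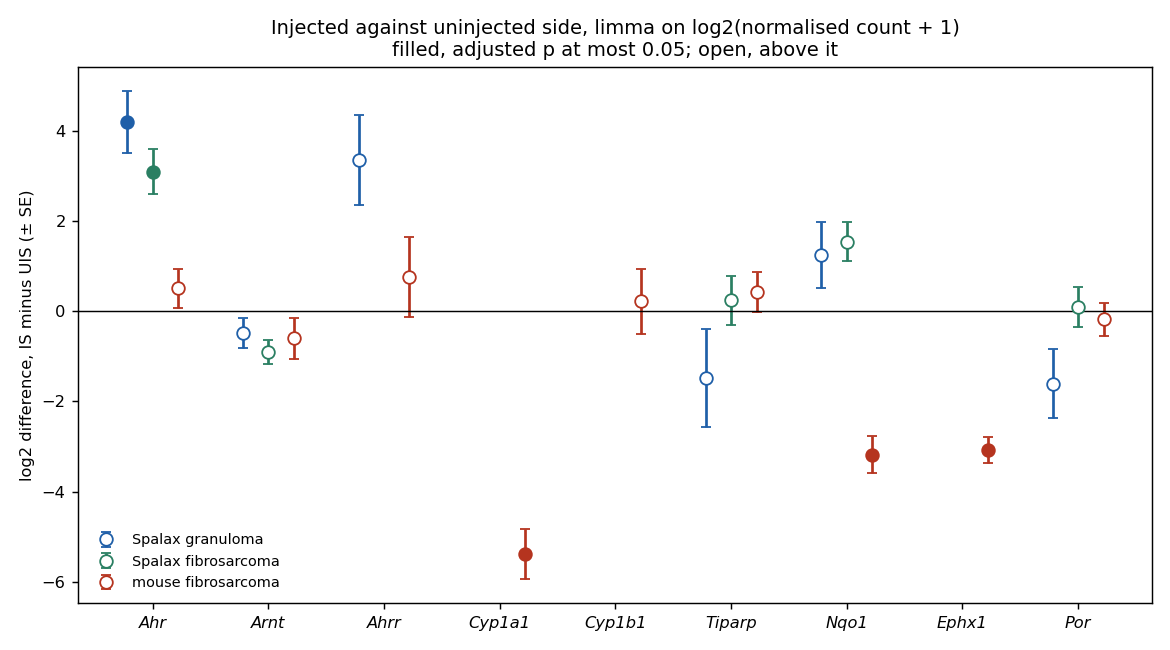
Difference IS minus UIS on the log2(normalised count + 1) scale for each gene, with its SE from limma, in Spalax granuloma (2 animals), Spalax fibrosarcoma (2) and mouse fibrosarcoma (3). Filled points passed an adjusted p of 0.05: Ahr at 4.20 and 3.09 in Spalax, and Cyp1a1 at -5.37, Nqo1 at -3.18 and Ephx1 at -3.08 in mouse.

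The deposited scaling sets the median gene near 0 between the sides, and scaling by total reads moved that median from -0.01 to 0.72 in granuloma, from 0.03 to 0.83 in Spalax fibrosarcoma and from 0.11 to 1.16 in mouse. On that scale the called genes kept their sign, with Ahr at 4.93 and 3.90 in Spalax and Cyp1a1 at -4.31, Nqo1 at -2.12 and Ephx1 at -2.02 in mouse. Arnt in granuloma (0.26) and in mouse (0.46) and Por in mouse (0.89) turned to the other sign but stayed below the median gene, and Ahr (1.57) and Tiparp (1.49) in mouse passed the threshold. On this scale 30.5%, 46.5% and 60.6% of all genes were called. The share of calls in the direction of higher went from 48.0% to 75.0%, from 47.8% to 75.7% and from 50.5% to 81.9%. Between the species it went from 49.6% to 34.9%, where Nqo1 kept its call at 4.47.

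A list of 97 further genes, called pathway genes here, was divided into 8 groups by role. Of these, 59 had a row in Spalax and 96 in mouse. Not all are specific to Ahr, as the list also holds partners of Arnt, genes of Nrf2 control and transporters. In granuloma 7 of 53 tested rose and 11 fell (median log2 difference -0.65, against -0.01 for all genes), in Spalax fibrosarcoma 8 of 53 rose and 10 fell (0.06 against 0.03), and in mouse fibrosarcoma 13 of 84 rose and 31 fell (-0.75 against 0.11). The shares of all genes called were those given above. Of the 5 genes of the receptor complex 2 rose and none fell in granuloma (median -0.44) and in Spalax fibrosarcoma (median 0.43), and 2 rose and 1 fell in mouse (median -0.08). The rises were those of the chaperone gene Hsp90aa1, which rose by 2.24, 2.56 and 2.08 on the log2 scale in these comparisons, and the kinase gene Src, which rose by 3.63, 2.97 and 3.54. Of the 14 Arnt relatives and partners 13 were tested each time. In granuloma 1 rose and 3 fell (median -1.18), in Spalax fibrosarcoma 1 and 2 (-0.39) and in mouse 1 and 1 (-0.34). Hif1a rose by 2.42, 2.72 and 1.72, and Epas1 had -1.78, -1.92 and -3.41, called in each. Of other receptor targets 1 rose and 1 fell among 2 tested in granuloma (median -0.46) and among 3 in Spalax fibrosarcoma (1.63). In mouse 1 rose and 2 fell among 4 (-2.39).

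The largest rises in granuloma were Ptgs2, the inducible cyclooxygenase (1.18 and 6.03 normalised counts on the UIS, 100 and 358 on the IS as lowest and highest), Slc7a5, an amino acid transporter (16.9 and 48.3, 288 and 1094), and Src (15.3 and 47.0, 294 and 406). Without the UIS of 976 their log2 differences went from 5.61 to 4.76, from 4.24 to 4.97 and from 3.63 to 2.85. In Spalax fibrosarcoma they were Slc7a5 (28.4 and 53.3, 404 and 727), the heme oxygenase Hmox1 (212 and 222, 1710 and 1835) and Src (57.0 and 65.4, 289 and 819). In mouse they were Ptgs2 (0 to 50.8 on the UIS, 247 to 1521 on the IS), the efflux pump Abcc3 (4.32 to 66.5, 158 to 383) and Slc7a5 (51.6 to 157, 768 to 2000). Slc7a5 thus stood among the 3 largest rises each time, with log2 differences of 4.24, 3.76 and 3.66 and adjusted p of 0.0282, 0.0108 and 0.00369. Without the IS library of 1023, Ptgs2 and Abcc3 lost their call in mouse (adjusted p = 0.0619 and 0.0629), as did Abcc3 without the IS of 1019 (0.0664) or the UIS of 1023 (0.0583).

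The largest falls included oxidases and an epoxide hydrolase. Aox1, the aldehyde oxidase, had 7011 and 48213 normalised counts on the granuloma UIS and 43.5 and 97.3 on the IS, and 7498 and 8255 against 15.6 and 19.1 in Spalax fibrosarcoma. Ephx2, the soluble epoxide hydrolase, fell in each comparison, with log2 differences of -5.51, -4.70 and -6.23. Ppara, a receptor of fatty acids, was the other large fall in granuloma (1037 and 4001 against 7.25 and 10.9). Without the UIS of 976 the granuloma log2 differences went from -8.12 to -6.73 for Aox1, from -7.69 to -6.71 for Ppara and from -5.51 to -5.40 for Ephx2. Fmo2, a flavin monooxygenase, had 317 and 435 against 1.23 and 3.00 in Spalax fibrosarcoma and 542 to 2210 against 13.7 to 66.4 in mouse. Cyp2e1 had 156 to 2154 against 3.68 to 8.90 in mouse. The adipocyte markers summed to 3869 to 15311 on the Spalax UIS and 178 to 1245 on the IS, with Lep at 0 in every Spalax IS library, and their part in these falls, as in the mouse ones, was not tested. These Spalax calls, like that of Ahr, were lost without any 1 of the 4 granuloma libraries and without either fibrosarcoma UIS library.

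By group, conjugation and hydrolysis genes included 14 that fell and 1 that rose among 26 tested in mouse (median -1.98), and 2 that fell and 1 that rose among 11 in granuloma (-0.68) and 3 that fell among 11 in Spalax fibrosarcoma (-0.50). Of all genes, 22.3%, 12.6% and 19% were called lower in these comparisons. The mouse and Spalax counts cover different genes, and of 11 tested between the species 2 were called. Oxidation and its electron donors had 8 falls and 6 rises among 18 in mouse (-0.67), 1 of each among 5 in granuloma (1.31) and 1 fall among 4 in Spalax fibrosarcoma (-1.76). The Nrf2 group had 2 rises and no fall among 8 in Spalax fibrosarcoma (median 0.75), 1 of each among 8 in granuloma (-0.69) and 1 of each among 8 in mouse (-0.37). Of the group of other receptors, 3 of 3 tested fell in mouse and 2 of 4 in each Spalax comparison. This group also held Ppara, a receptor of fatty acids, so these are not counts of sensors of foreign compounds alone. Among 55 pathway genes tested for a difference between the species, 4 were called, beside 4.55% of all genes (0.757% with the animal as a block), and these were named after their values were seen: the glutathione transferases Mgst1 (4.95) and Mgst3 (3.06), Fmo4 (5.76) and Aox1 (-6.79). No pathway gene was called by limma between control and UIS in Spalax (0 of 51, with 12 at an unadjusted p under 0.05 beside 16.6% of all genes) or mouse (0 of 83, with 15 beside 11%), nor between control and tolerant (0 of 50, with 4 beside 5.23%).

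**Figure D4:**
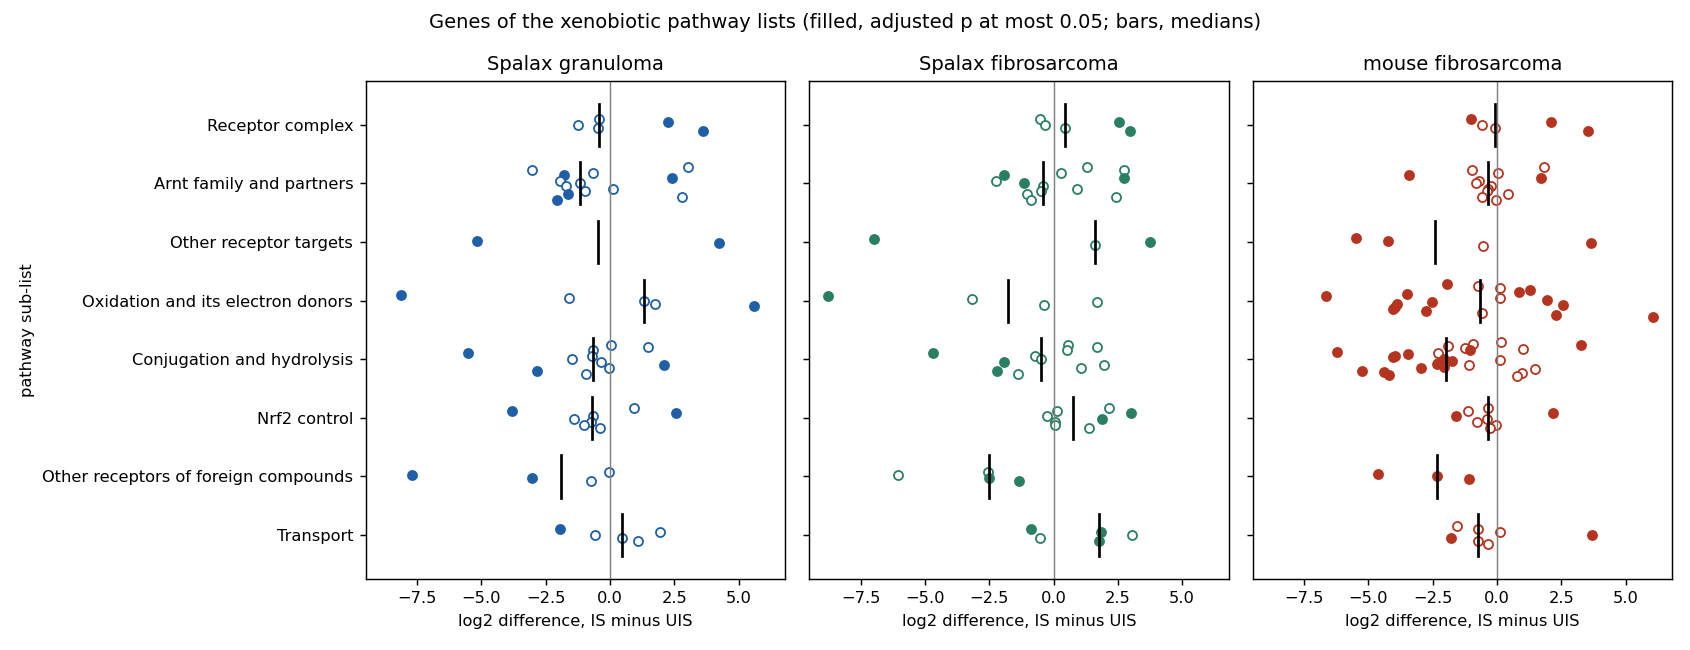
Difference IS minus UIS on the log2(normalised count + 1) scale for each tested gene of the 8 pathway groups (points) and the group median (bars), in 3 panels by comparison; filled points passed an adjusted p of 0.05 in limma. In mouse 14 of 26 conjugation and hydrolysis genes lie at called negative values (22.3% of all genes were called lower), and in Spalax 2 or 3 of 11 (12.6% and 19%). The mouse and Spalax counts cover different genes and numbers of animals.

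The genes whose pattern was most like that of each member were sought by Pearson's r of log2 values over the libraries of a species, as a description over samples that share tissue composition. In Spalax (16 libraries, 16055 genes) the nearest to Ahr were Tbc1d2b (r = 0.979), Myd88 (0.978) and Nrp2 (0.974), to Arnt Slc44a2 (0.892), Gbf1 (0.886) and Fgf11 (0.884), and to Ahrr Akna (0.957), Kcne3 (0.956) and Gpr176 (0.956). Tiparp was nearest to Gzf1 (0.956), Terf2 (0.933) and Nfx1 (0.925), Nqo1 to Gdf15 (0.922), Icmt (0.916) and Kdelc1 (0.908), and Por to Nampt (0.857), Glul (0.857) and Rev3l (0.850). In mouse (9 libraries, 16670 genes) Cyp1a1 was nearest to Tbck (0.947), Eif5 (0.939) and Slc25a36 (0.934), Ephx1 to Myoc (0.993), Hadha (0.992) and Acsl1 (0.992), Nqo1 to Cul2 (0.996), Snapin (0.994) and Letm2 (0.994), and Cyp1b1 to Clock (0.985), Wbscr27 (0.970) and Mtr (0.961). Ahr was nearest there to Shtn1 (0.993), Hsd17b11 (0.949) and Lipa (0.948), Ahrr to Hnrnpul2 (0.966), Rbm27 (0.965) and Bmp2k (0.965), Arnt to Prpf6 (0.988), Tmem87b (0.987) and Eif3c (0.986), Tiparp to Cd164 (0.985), Fam199x (0.979) and Stag1 (0.979), and Por to Pmp22 (0.950), Zadh2 (0.935) and Gucy1a2 (0.931). For Ahr, Arnt, Ahrr, Tiparp, Nqo1 and Por, which were searched in both species, the 3 nearest genes in Spalax and the 3 nearest in mouse had no gene in common. With 3 genes taken from 16055 or 16670 and no expected overlap computed, this cannot show a difference between the species.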

How the data were processed

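RNA-seq of neck tissue was measured in 16 Spalax and 9 mouse libraries. Per the labels and methods, the authors used strand-specific libraries, trimmed reads, aligned them with TopHat (1.4.1 in the submitters' processing notes, GRCm38 for mouse), counted them per gene with HTSeq and scaled them with DESeq. The strand setting of counting is not given in the sources used here. What was deposited is a normalised signal, in which each library's reads per gene were divided by that library's size factor. Whole reads were recovered from every value (tolerance 0.01 read), so the depth of each library is known, and intervals and floors cover counting error only. A normalised count of 10 was 7.03 to 16.7 reads in Spalax and 6.95 to 19.3 in mouse.

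Groups were taken from the sample labels. The members and lists were chosen with earlier results of these data known. limma 3.58.1 (R 4.3.3) was fitted to log2(value + 1) of the 2 groups compared, over all genes that reached 10 in a number of libraries equal to the size of the smaller group. The authors tested counts with edgeR and DESeq2, which are alternatives here because the deposited values are scaled. Adjusted p are Benjamini-Hochberg values over all genes tested, called at 0.05, and fold changes on this scale understate the change of low genes. IS minus UIS differences of Spalax and mouse were compared for genes with the same symbol. edgeR 4.0.16 and DESeq2 1.42.0 on recovered reads, a pseudocount of 0.1, no filter, scaling by total reads, 1 model per species, the animal as a block and leaving out each library were alternatives. A left-out library can leave a group of 1, which is then assumed to vary like the other group. The fits were run on simulated unpaired counts with a fixed spread and known changes in a small set of genes. That check does not cover the spread between animals or the wide shift between sides in these data. Named were the 9 members, the 3 largest rises and 3 largest falls of the pathway list per comparison among calls without overlap, and the 3 genes nearest to each member. Other pathway genes were chosen after their values were seen. Results for 1 gene of the pathway list are not reported here. Tables and figures used Python 3.11.15, pandas 2.3.3 and matplotlib 3.10.9.

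IS and UIS libraries share the animal number in the labels and so are pairs of 1 animal. Deviations from the group means of paired libraries had r = 0.009 in granuloma, -0.002 in Spalax fibrosarcoma, and 0.125, 0.047 and 0.178 in mouse.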

Additional observations from a re-analysis of the deposited data

Results flagged for a closer look

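In 18 sets of 4 libraries (each Spalax gene in control, tolerant and tumor-bearing UIS), 5 held a library whose gap to the nearest other, divided by the range, was above the critical value of Dixon's test. For normally distributed values chance gives about 1 in 20. The ratios were taken on normalised counts without a log, which can be skewed, and the sets share libraries, so the 5 flags are a description only. Ahr was 26.2 normalised counts in control animal 2095, the lowest of its group, and 348 in tolerant animal 2251, the highest. Por was 4340 in tolerant animal 2375. The granuloma UIS library of animal 976 held the highest Tiparp, 10681, and the highest Por, 4041, of the 4 UIS libraries, and its run name carries another animal number. Separately, the Nqo1 response differed between the fibrosarcomas of Spalax and mouse by 4.72 on the log2 scale (adjusted p = 0.0105 in limma).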

How the results depend on the processing

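The number of the 9 genes called by limma stayed at the reported value except as follows. In granuloma it was 2 with scaling by total reads, 2 with 1 model over the species and 0 whichever library was left out. In Spalax fibrosarcoma it was 3 with DESeq2, 2 by total reads, 3 with 1 model and 0 to 5 without 1 library. In mouse it was 5 by total reads and 3 to 5 without 1 library. DESeq2 called 1 between Spalax control and UIS, 2 between mouse control and UIS, and 2 between species, where leaving out 1 library gave 0 to 2. The cause was not tested.

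With the animal as a replicate block Spalax fibrosarcoma had 2 genes called, the second being Nqo1 (adjusted p = 0.0440), and 97 rather than 583 genes were called between species. The block changed no other call of the members.

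Signs turned for Arnt by total reads in granuloma (0.26) and mouse (0.46), for Por by total reads in mouse (0.89), Spalax control against UIS (-0.0006) and tolerant (0.0115), for Por in tolerant with edgeR (0.31), for Ahrr in mouse with edgeR (-0.01), for Cyp1b1 in mouse with edgeR (-0.23) and DESeq2 (-0.22), and for Tiparp between species with edgeR (0.0634) and DESeq2 (0.15). Without 1 library the log2 difference ranged from -3.19 to 0.23 for Tiparp in granuloma, -0.50 to 0.98 for Tiparp and -0.48 to 0.67 for Por in Spalax fibrosarcoma, and -0.50 to 0.96 for Cyp1b1 and -0.54 to 0.0585 for Por in mouse. Between Spalax control and UIS it ranged from -0.42 to 0.22 for Ahr and -0.50 to 0.19 for Por, and between control and tolerant from -0.55 to 0.77 for Ahr, -0.36 to 0.0095 for Nqo1 and -0.67 to 0.13 for Por. Between species it ranged from -0.82 to 0.053 for Arnt, -0.92 to 0.56 for Tiparp and -0.30 to 0.86 for Por, and between the Spalax growths from -0.45 to 1.04 for Nqo1. None of these was called in the reported fit.

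Over all genes, granuloma calls were 3581, and 6314 with 1 model, 5383 with DESeq2 and 0 whichever library was left out. Spalax fibrosarcoma calls were 5339, and 0 to 7900 without 1 library. Mouse calls fell from 6870 to 4258 without the IS of 1023. Calls between species were 583, 1900 with DESeq2 and 10 to 983 without 1 library. In place of 0 calls, mouse control against UIS had 342 with DESeq2 and 4 without control 2, Spalax control against UIS 516 with DESeq2 and 1 with 1 model, control against tolerant 60 with DESeq2, 2 without the filter and 1 with 1 model, and the Spalax growths 88 with DESeq2 and 3 without the fibrosarcoma IS of 2230. Depth limits Ahrr, with at most 30 reads in a Spalax library.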
